A study of Mus musculus with 115 samples.

Results

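The Eph receptors are receptor tyrosine kinases that bind ephrins on neighbouring cells, and 10 of their genes, Epha3, Epha4, Epha5, Epha6, Epha7, Epha10, Ephb1, Ephb2, Ephb3 and Ephb6, were followed here through single dentate granule cells. They were taken by gene symbol from the 22870 genes of the count table. Kainic acid (KA), an agonist of glutamate receptors that provokes seizures, or saline had been injected into one hippocampus of Rbp4-Cre mice together with AAV.cDIO-mCherry, a virus that marks the injected site in Cre-expressing granule cells, and retroAAV-EGFP, a virus taken up by axon endings, into the ventral hippocampus of the other side. A granule cell with EGFP (EGFP+) in the injected hippocampus is therefore one with an axon to the opposite side, a commissural cell, whereas a cell without it (EGFP-) either sends no such axon or was not reached by the virus. The cytosol of single cells was drawn into a patch pipette 2 weeks after injection, whatever their mCherry, and sequenced.

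Of 115 labelled cells, 95 stood in the table that had passed quality control and were used: 27 KA EGFP+ cells, stated to come from 9 mice, 36 KA EGFP- cells, 5 saline EGFP+ cells and 27 saline EGFP- cells, each of these 3 groups stated to come from 3 mice. No label ties a cell to its mouse, and age and sex are not given in the sources used here. Each group was therefore treated as 1 sample, no test across cells was made, and the SD and intervals given here describe the spread between cells or counting error only. Cell titles form a first series, M1 to M48, and a second, from M201 on. The first series holds KA cells alone (24 EGFP+ and 21 EGFP-), and the second holds 3 KA EGFP+ cells, 15 KA EGFP- cells and all 32 saline cells, so treatment is compared within a series only in the second. Of the kept cells 13 are labelled as having failed quality control, and of the 20 left out 12 are labelled as passed. Whether treatment and EGFP class labels of single cells are displaced in the same way was not tested.

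Eph receptors are divided into A and B classes by whether they mainly bind ephrin-A ligands, which are tethered to the membrane by a lipid anchor, or ephrin-B ligands, which span the membrane. Contact clusters the receptors, switches on their kinase and, through exchange factors for small GTPases, changes the actin of growth cones and dendritic spines, while the ephrin-bearing cell is signalled to in return. In the hippocampus the family is known for guiding entorhinal and mossy fibre axons, for shaping dendritic spines and for astrocyte contact at synapses. EphA10 and EphB6 differ from the rest in that their kinase domains are known as catalytically impaired. The difference can be read in the coding sequence of the catalytic loop, the stretch of the kinase domain that carries out phosphate transfer, which is shown for the receptors that the results turn on, 5′ to 3′ from GENCODE transcripts, with capitals where a base differs from Epha4.
Epha4: catcgagacctggctgccaggaac
Epha7: caCAgGgacctTgcAgcGCgCaac
Ephb1: caCcgGgacctggctgcTagAaac
Epha10: caCcgGgGcctTgcAgccCgCCGA
Ephb6: caCcgagCActCTcGgccCgAaGT
In Epha7 and Ephb1 the differing bases left every codon's amino acid as in Epha4, and the same was found for Epha3, Epha5, Epha6, Ephb2 and Ephb3. In Epha10, 2 of the 8 codons encode another amino acid than in Epha4, and in Ephb6 3 do. On GRCm38 in the GENCODE annotation, Epha7 (chr4:28813131-28967499, plus strand) and Epha10 (chr4:124880899-124917800, plus) share chromosome 4, Epha4 lies at chr1:77367185-77515088 (minus), Ephb6 at chr6:41605482-41620509 (plus) and Ephb1 at chr9:101922128-102354693 (minus); counts cover their exons.

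The start regions of Epha7, the most abundant of these receptors, and Epha10, whose level differed most between KA and saline EGFP- cells, are shown next, each from 250 bases before to 50 bases after the RefSeq start on GRCm38.p6, with each CG pair in capitals. The Epha7 region lies at chr4:28812881-28813180 on the plus strand and the Epha10 region at chr4:124881535-124881834 on the plus strand.
Epha7: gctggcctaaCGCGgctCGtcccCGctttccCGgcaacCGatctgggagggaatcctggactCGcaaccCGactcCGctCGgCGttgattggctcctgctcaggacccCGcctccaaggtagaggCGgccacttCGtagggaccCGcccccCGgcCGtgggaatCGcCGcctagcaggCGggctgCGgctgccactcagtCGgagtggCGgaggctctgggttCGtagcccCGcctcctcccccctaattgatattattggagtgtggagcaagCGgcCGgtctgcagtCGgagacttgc
Epha10: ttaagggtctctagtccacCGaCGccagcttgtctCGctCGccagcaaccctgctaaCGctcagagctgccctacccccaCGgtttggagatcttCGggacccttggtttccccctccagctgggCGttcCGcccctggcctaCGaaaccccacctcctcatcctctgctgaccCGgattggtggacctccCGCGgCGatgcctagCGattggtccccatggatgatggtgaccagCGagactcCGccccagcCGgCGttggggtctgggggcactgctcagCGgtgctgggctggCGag
The Epha7 region holds 28 CG pairs and the Epha10 region 21, against a median of 7 over 32851 regions of the same length. All 10 genes matched, with 11 start regions that hold 14 to 34 CG pairs and 55.7% to 76.3% G and C, against a median of 52.7% over all regions. Of all regions, 36.3% hold at least 14 CG pairs.

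Library depth ran from 1277978 to 56183007 counts per cell (median 5221619), and 1469 to 9945 genes were counted per cell. The median number of genes per KA EGFP- cell was 6974 in the first series and 3707 in the second, against 4448 in saline EGFP- cells. Summed counts of 12 granule cell markers had medians of 1536 CPM (counts scaled to a total of 1000000 per cell) in KA EGFP+ cells, 1684 in KA EGFP- cells, 3012 in saline EGFP+ cells and 5037 in saline EGFP- cells. Some KA EGFP- cells had no count of them, and Tdo2 was at 0 in both KA groups. Summed counts of 16 microglia markers, all with counts in each group, ran from 0 to 25833 CPM in KA EGFP+ cells (median 135), from 0 to 53453 CPM in KA EGFP- cells (median 85.5), from 15.2 to 49986 CPM in saline EGFP+ cells (median 28696) and from 0 to 53534 CPM in saline EGFP- cells (median 269.1). These markers took at least 0.1% of the counts in 10 KA EGFP+, 6 KA EGFP-, 4 saline EGFP+ and 12 saline EGFP- cells. Summed counts of 9 interneuron markers differed between groups, with medians of 662 CPM in KA EGFP+ and 761 CPM in KA EGFP- cells, against 14.1 CPM in saline EGFP+ and 326 CPM in saline EGFP- cells, and ranges from near 0 to 2640, 4306, 648 and 2826 CPM in that order. They took at least 0.1% of the counts in 11 and 17 KA cells, against 0 and 4 saline cells. Of them Lhx6 and Dlx1 were at 0 in all KA EGFP+ cells and Slc32a1, Sst, Vip and Dlx1 in all KA EGFP- cells, and the part of these markers in the receptor differences was not tested.

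Epha7, a receptor known for repelling axons and for a role in dendrite and synapse formation, was the most abundant per length. Over the 95 cells its mean was 60.1 ± 73.1 CPM per kilobase of exon (SD), or 41.8% of the sum over the 10 receptors. Epha4, a receptor of both ephrin classes that is known for limiting dendritic spines, followed with 32.2 ± 40.9 CPM per kilobase and 22.4%. Together these genes held more of the receptor signal than all the others combined. Then came Ephb6 with 15.2 ± 47.2, Epha10 with 13.8 ± 23.6, Epha6 with 9.96 ± 23.2, Epha5 with 5.53 ± 11.8 and Ephb1 with 4.63 ± 11.3 CPM per kilobase. Ephb3 (1.22 ± 7.93), Ephb2 (0.69 ± 2.26) and Epha3 (0.49 ± 3.23) closed the order. Each of these SDs exceeds its mean, and each mean lies within 1 SD of its neighbour in the order. A median gives another picture for Ephb6, which was at 0 CPM per kilobase in the median cell and owed its place to 20 cells at 10 CPM or more.

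Within single cells the order was less fixed. Epha7 was the highest receptor per length in 49 of the 94 cells with any receptor count, Epha4 in 20, Epha10 in 8, Ephb6 in 5 and Epha5 in 4. Epha6 and Ephb3 led in 3 cells each and Ephb1 in 2, while Epha3 and Ephb2 led in no cell. One KA EGFP- cell had no count of any of the 10.

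**Figure D1:**
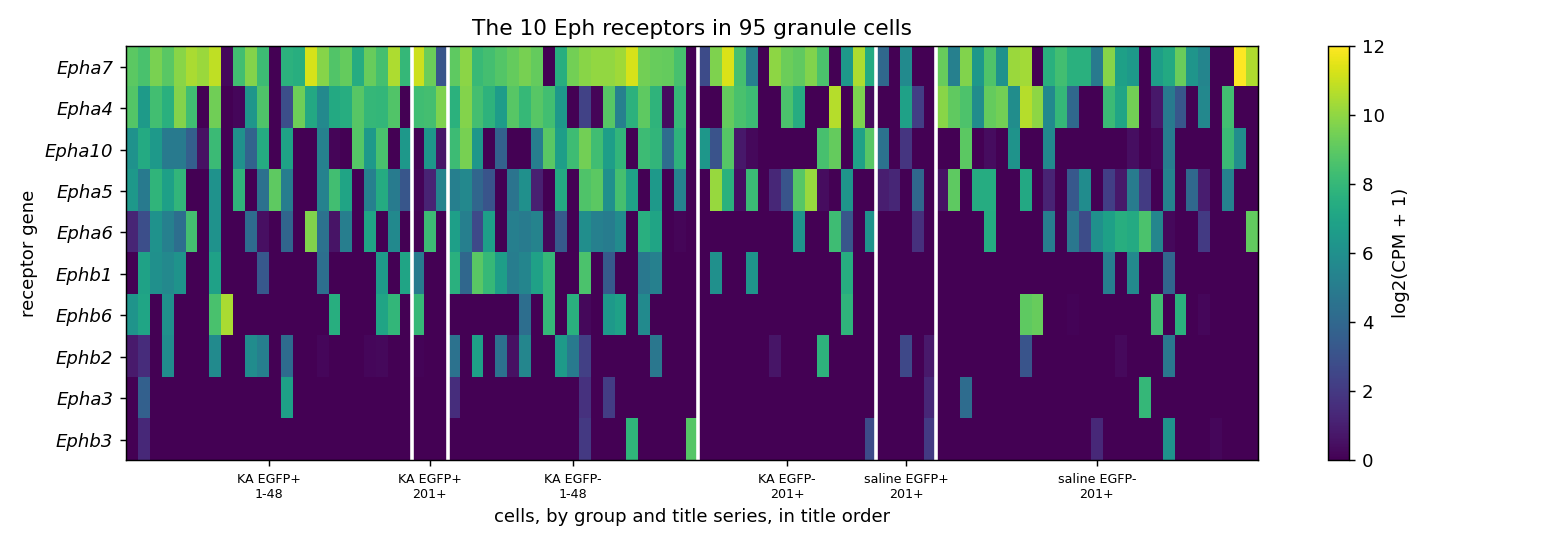
Level of each of the 10 receptors (rows, log2(CPM + 1), colour) in each of 95 cells (columns, in title order within group and title series, white lines between blocks). Epha7 is counted in 83 of the 95 cells and Epha4 in 72, whereas Epha3 is counted in 8 and Ephb3 in 9.

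Epha7 had a median of 506 CPM in KA EGFP+ cells (0 to 2491), 570 CPM in KA EGFP- cells (0 to 2587) and 154 CPM in saline EGFP- cells (0 to 4657). The 5 saline EGFP+ cells had 15.7, 0, 52.5, 0 and 0 CPM. The ranges overlapped in all groups, and the 5 saline EGFP+ cells lay below the median of each other group. After each cell was thinned to 1000000 counts, Epha7 was counted in 25 of 27 KA EGFP+ cells (92.6%, 95% Clopper-Pearson interval 75.7% to 99.1%) and 32 of 36 KA EGFP- cells (88.9%, 73.9% to 96.9%), against 2 of 5 saline EGFP+ cells (40%, 5.27% to 85.3%) and 23 of 27 saline EGFP- cells (85.2%, 66.3% to 95.8%). The near-equal shares in KA and saline EGFP- cells stand beside medians of 570 and 154 CPM.

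Epha4 had a median of 243.6 CPM in KA EGFP+ cells (0 to 863), 205.004 CPM in KA EGFP- cells (0 to 1628) and 58.7 CPM in saline EGFP- cells (0 to 1637). In the saline EGFP+ cells it stood at 0, 0, 117, 3.63 and 0 CPM. Epha4 was divided between cells with a high level and cells at or near 0: the cells at 10 CPM or more, 21 of 27 KA EGFP+, 23 of 36 KA EGFP-, 1 of 5 saline EGFP+ and 18 of 27 saline EGFP-, had medians of 316, 332, 117 and 309 CPM in that order. The level in cells that carried the transcript was thus close in KA EGFP+, KA EGFP- and saline EGFP- cells. The shares of cells at that level were 77.8%, 63.9% and 66.7% in the same order. After thinning, Epha4 was counted in 81.5%, 66.7% and 74.1% of them, with overlapping Clopper-Pearson intervals. By either measure the share was slightly higher in saline than in KA EGFP- cells, so it did not follow their medians over all cells. Within the second title series, which holds all saline cells, the order of the medians turned. The 15 KA EGFP- cells there had a median of 0.28 CPM, against 58.7 CPM in saline EGFP- cells, and 46.7% of them were at 10 CPM or more.

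Epha5 and Epha6 are A-class receptors with high expression in the brain, and Epha5 is known as a partner of ephrin-A5 in synapse formation. Epha5 had a median of 32.9 CPM in KA EGFP+ cells (0 to 514), 19.2 CPM in KA EGFP- cells (0 to 1150) and 0.98 CPM in saline EGFP- cells (0 to 513). The saline EGFP+ cells had 0.98, 1.48, 0, 15.2 and 0 CPM, within the range of the other groups. Epha6 had a median of 6.28 CPM in KA EGFP+ cells (0 to 834), 2.73 CPM in KA EGFP- cells (0 to 311) and 0 in saline EGFP- cells (0 to 546), and 1 saline EGFP+ cell had 2.18 CPM with the other 4 at 0. Epha3, an A-class receptor known from axon guidance in the developing brain, was counted in 2 of 27 KA EGFP+, 3 of 36 KA EGFP-, 1 of 5 saline EGFP+ and 2 of 27 saline EGFP- cells. Its highest cells were a KA EGFP+ cell at 113 CPM and a saline EGFP- cell at 250 CPM, so any mean of Epha3 rests on 1 to 3 cells.

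**Figure D2:**
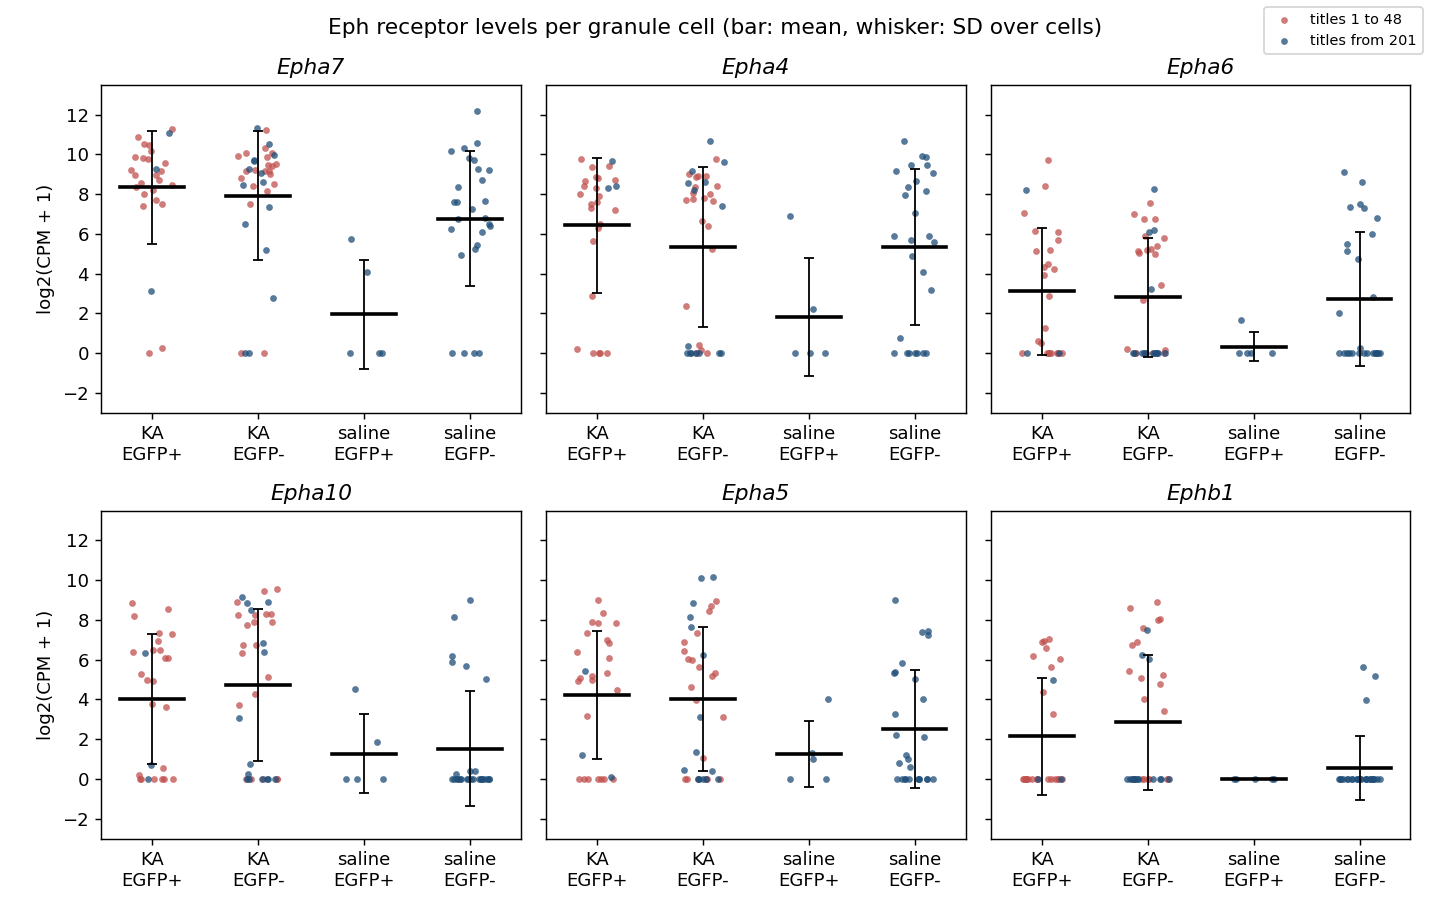
Level of 6 receptors (log2(CPM + 1)) in each cell by group, with the mean (bar) and SD over cells (whisker); red points are cells of titles M1 to M48 and blue points cells of titles from M201 on. Epha10 averages 4.73 in KA EGFP- cells and 1.52 in saline EGFP- cells, while Epha6 averages 2.81 and 2.71.

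Epha10, the A-class member with the altered catalytic loop shown above, had a median of 30.1 CPM in KA EGFP+ cells (0 to 455), 80.7 CPM in KA EGFP- cells (0 to 755) and 0 in saline EGFP- cells (0 to 507). The saline EGFP+ cells had 21.99, 0, 2.65, 0 and 0 CPM. After thinning it was counted in 20 of 27 KA EGFP+ cells (74.1%, 53.7% to 88.9%) and 24 of 36 KA EGFP- cells (66.7%, 49.0% to 81.4%), against 2 of 5 saline EGFP+ cells and 7 of 27 saline EGFP- cells (25.9%, 11.1% to 46.3%). Most KA cells of either class thus held it and most saline cells did not, although single saline cells reached the levels of KA cells. KA EGFP- cells held it in 16 of 21 cells of the first title series and 8 of 15 of the second (53.3%, 26.6% to 78.7%), which holds all saline cells. Among cells at 10 CPM or more the median was 82.8 CPM in 17 KA EGFP+ cells and 268.3 CPM in 22 KA EGFP- cells, against 65.1 CPM in 6 saline EGFP- cells.

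Ephb6, the B-class member with the altered loop, had a median of 0 CPM in every group. It stood at 10 CPM or more in 9 of 27 KA EGFP+ and 7 of 36 KA EGFP- cells, against none of 5 saline EGFP+ and 4 of 27 saline EGFP- cells, with highest cells at 1421, 251.6, 0 and 587 CPM in that order. The sparse cells that held it held much of it: their median was 183 CPM in KA EGFP+, 116 CPM in KA EGFP- and 417 CPM in saline EGFP- cells.

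Ephb1 and Ephb2 are B-class receptors that cluster NMDA receptors at synapses, and Ephb3 acts with them in spine formation. Ephb1 was counted after thinning in 10 of 27 KA EGFP+ cells (37.04%, 19.4% to 57.6%) and 16 of 36 KA EGFP- cells (44.4%, 27.9% to 61.9%), against 0 of 5 saline EGFP+ cells, for which the Clopper-Pearson limit allows a share of up to 52.2%, and 3 of 27 saline EGFP- cells (11.1%, 2.35% to 29.2%). KA EGFP- cells held Ephb1 in 13 of 21 cells of the first title series and 3 of 15 of the second (20%, 4.33% to 48.1%), which holds all saline cells. Its highest cell had 129 CPM among KA EGFP+ and 480 CPM among KA EGFP- cells, against 48.7 CPM among saline EGFP- cells. Ephb2 was counted in 6 of 27 KA EGFP+ and 10 of 36 KA EGFP- cells, against 2 of 5 saline EGFP+ and 2 of 27 saline EGFP- cells. Ephb3 was counted in 1 of 27 KA EGFP+ and 4 of 36 KA EGFP- cells, against 1 of 5 saline EGFP+ and 2 of 27 saline EGFP- cells, and 2 KA EGFP- cells, the highest at 459 CPM, carried nearly all of its level in that group. For Ephb1, Ephb2 and Ephb3 the intervals of all groups overlapped, for Ephb1 narrowly between KA and saline EGFP- cells.

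**Figure D3:**
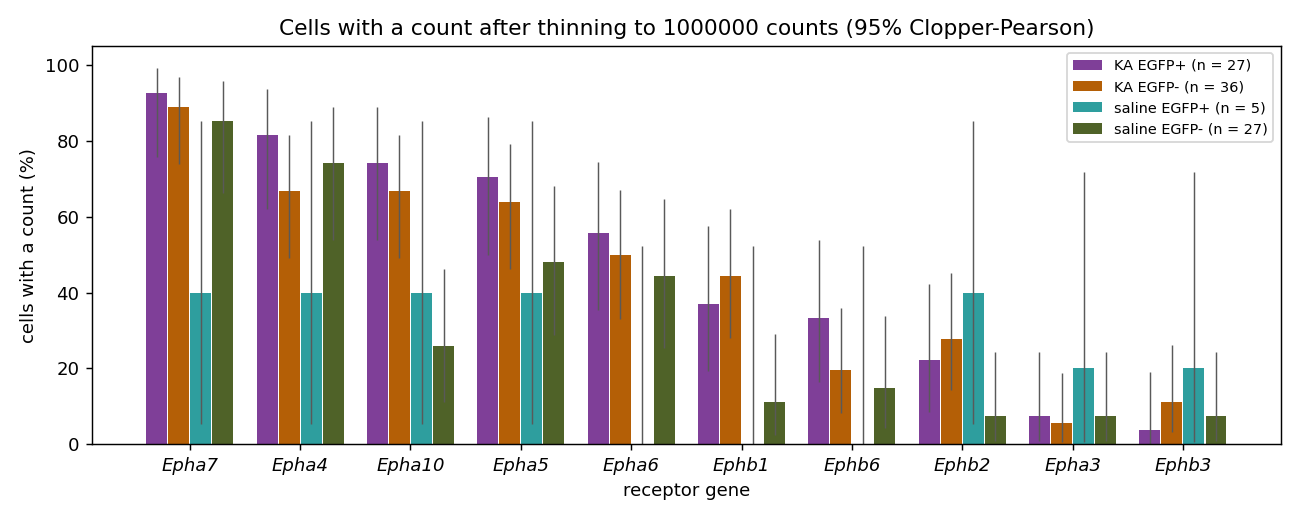
Percentage of cells of each group with a count of each receptor after every cell was thinned to 1000000 counts (bars), with 95% Clopper-Pearson intervals. Epha10 is counted in 66.7% of KA EGFP- and 25.9% of saline EGFP- cells, and Ephb1 in 44.4% and 11.1%. KA bars pool both title series, and all saline cells are of the second. In KA EGFP- cells of the second series the shares are 53.3% for Epha10 and 20% for Ephb1. The saline EGFP+ bars rest on 5 cells.

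Between KA and saline EGFP- cells, differences of mean log2(CPM + 1) are compared with those of the 9046 genes that had at least 1 CPM in at least 20% of the 95 cells. Of the 10 receptors, 7 passed that filter and Epha3, Ephb2 and Ephb3 did not. Most of the 95 cells are KA cells, so a gene high in KA passes the filter more easily. Ephb1 passed it through KA cells: it had a count in 10 of 27 KA EGFP+ and 16 of 36 KA EGFP- cells. Among saline cells it had a count in 0 of 5 EGFP+ and 3 of 27 EGFP- cells. Ephb6 passed narrowly, with 20 of the 95 cells at 10 CPM or more, and through KA EGFP+ cells. The shares at that level were 33.3% of KA EGFP+, 19.4% of KA EGFP-, 14.8% of saline EGFP- and 0% of saline EGFP+ cells. Medians over the 7 carry this limit. Those over all 10 receptors do not, but the measured genes that they are set against all passed the filter. Epha10 averaged 4.73 ± 3.83 in KA EGFP- cells and 1.52 ± 2.89 in saline EGFP- cells (SD, n = 36 and 27), a difference of 3.21, and 1.09% of measured genes had a difference as high. Ephb1 averaged 2.85 ± 3.40 in KA and 0.55 ± 1.60 in saline EGFP- cells, a difference of 2.30. Next were Epha5 with a difference of 1.49, Epha7 with 1.15 and Ephb2 with 1.05, so 5 of the 10 were higher in KA by at least 1 on the log2 scale, as were 29.8% of measured genes. None was lower by that much, against 9.71% of measured genes. Differences were 0.31 for Ephb3, 0.10 for Epha6, 0.03 for Epha4 and for Ephb6, and -0.30 for Epha3. The median difference was 0.68 over all 10 receptors, 1.15 over the 7 that passed the filter and 0.46 over measured genes. Every one of these differences was below the larger of the 2 SDs, and those of Epha10 and Ephb1 exceeded the SD over saline cells.

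Restricted to the second title series, where both treatments occur, the median measured gene was lower in KA EGFP- cells by 0.50 on the log2 scale, and the receptors divided around a median of 0.08 over all 10 and 0.45 over the 7 that passed the filter. Epha10 averaged 3.51 ± 4.02 in 15 KA EGFP- cells and 1.52 ± 2.89 in saline EGFP- cells, a difference of 1.99, with 1.69% of measured genes as high. Epha5 averaged 3.77 ± 4.204 in KA and 2.51 ± 2.97 in saline EGFP- cells, a difference of 1.25. These 2 of 10 were the ones higher by at least 1, against 9.52% of measured genes. Epha4, with 4.17 in KA and 5.33 in saline EGFP- cells, and Epha6, with 1.59 and 2.71, were lower by at least 1, against 33.4% of measured genes. The Ephb1 difference was 0.77 and the Epha7 difference 0.45 within this series.

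**Figure D4:**
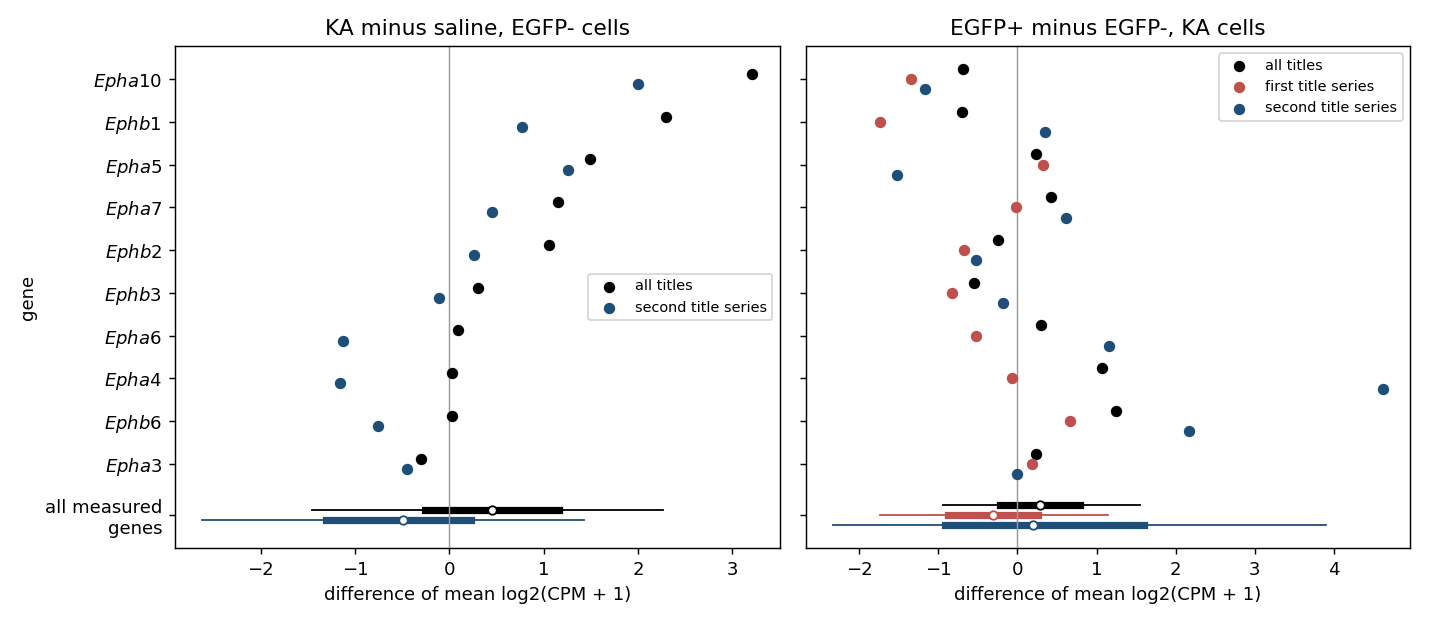
Difference of mean log2(CPM + 1) for each receptor (points) between KA and saline EGFP- cells (left) and between EGFP+ and EGFP- KA cells (right), over all titles and within title series; below, the median (open circle), middle 50% (thick line) and 5% to 95% range (thin line) of the 9046 measured genes. Epha10 lies at 3.21 over all titles and 1.99 in the second series in the left panel.

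Titles of the second series run in blocks, and Epha10, Epha5 and Epha4, chosen after their values were seen, differed between blocks of one group. Epha7 averaged 7.08, 9.41 and 6.59 in the 3 KA EGFP- blocks, against 7.56, 7.35 and 6.23 in the 3 saline EGFP- blocks. Epha10 averaged 2.41 in 8 KA EGFP- cells of titles M209 to M216, 0 in 2 cells of titles M237 to M238 and 6.68 in 5 cells of titles M267 to M272, against 1.56, 1.98 and 1.32 in the saline blocks of titles M203 to M208, M219 to M232 and M243 to M261. Without titles M267 to M272 its difference within the series was 0.41, and 19.3% of measured genes were as high. Epha5 likewise averaged 3.85, 9.50 and 1.33 in the same KA blocks, and without the 2 cells of titles M237 to M238 its difference was 0.37. Epha4 varied most among saline cells, with 8.69 in 6 cells of titles M203 to M208, 7.38 in 6 cells of titles M219 to M232 and 3.17 in 15 cells of titles M243 to M261. All 12 saline EGFP- cells of the first 2 blocks, but 6 of the 15 in the last, had Epha4 at 10 CPM or more. The labels do not say what a block is, and mouse, day and block cannot be told apart.

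**Figure D5:**
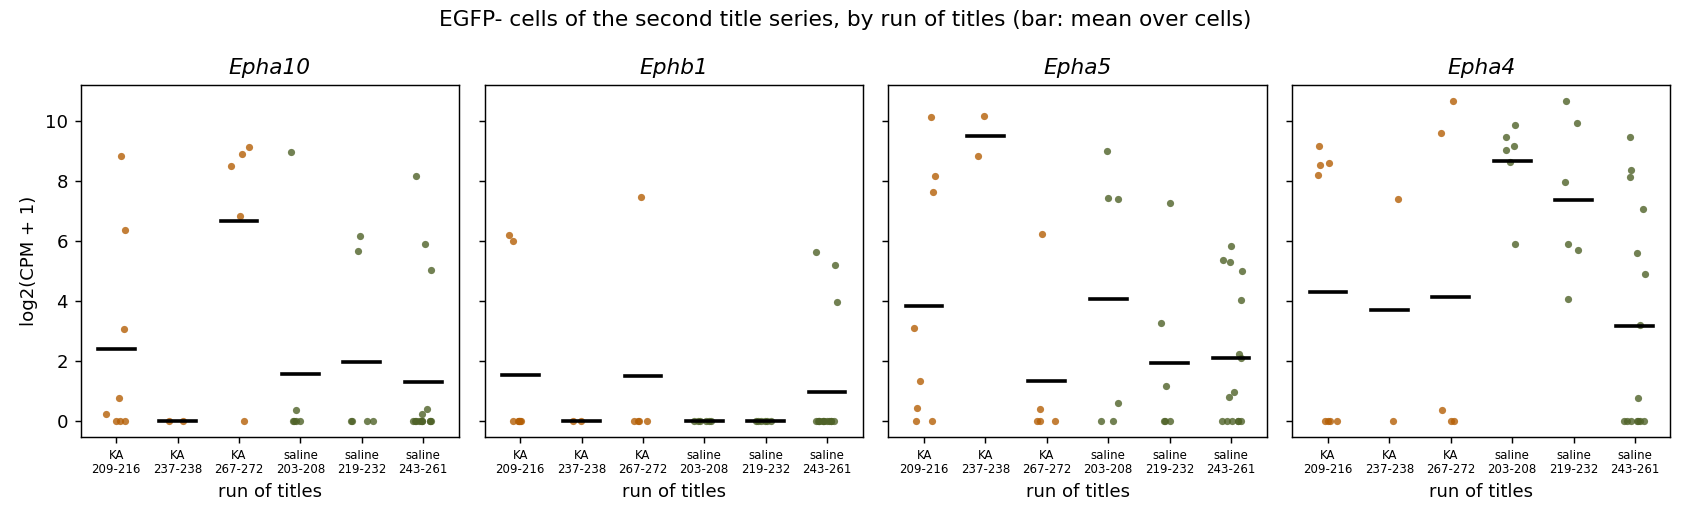
Level of 4 receptors (log2(CPM + 1)) in each EGFP- cell of the second title series, by block of consecutive titles within treatment, with the mean over cells (bar). Epha10 is high in 4 of the 5 KA cells of titles M267 to M272, and Epha4 averages 8.69 in saline titles M203 to M208 and 3.17 in saline titles M243 to M261.

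The comparison of commissural with other granule cells after KA gave smaller differences. Ephb6 averaged 2.55 ± 3.75 in KA EGFP+ and 1.31 ± 2.73 in KA EGFP- cells, a difference of 1.25. As given above, Ephb6 passed the filter through KA EGFP+ cells, so its place among measured genes carries that limit. Epha4 averaged 6.44 ± 3.41 in KA EGFP+ and 5.36 ± 4.02 in KA EGFP- cells, a difference of 1.08. These 2 of 10 were higher in EGFP+ cells by at least 1, as were 17.1% of measured genes, and none was lower by that much, against 4.13%. Epha10 (-0.69), Ephb1 (-0.70), Ephb3 (-0.54) and Ephb2 (-0.25) were lower in EGFP+ cells, while Epha7 (0.42), Epha6 (0.30), Epha5 (0.24) and Epha3 (0.24) lay near the median measured gene at 0.29. With only cells labelled as passed the differences were 0.98 for Ephb6 and 0.90 for Epha4. Each difference was below the SD of either group, except that of Ephb3, which is counted in few cells.

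The difference in Epha4 did not hold within the first series, where it was -0.07 between 24 EGFP+ and 21 EGFP- cells. It was 4.62 in the second series, where the 3 KA EGFP+ cells had 316, 342 and 807 CPM and the 15 KA EGFP- cells a median of 0.28 CPM (0 to 1628). Ephb6 kept its direction, with differences of 0.67 in the first series and 2.16 in the second, where it was counted in 1 of 3 EGFP+ and 1 of 15 EGFP- cells. Ephb1 differed by -1.73 in the first series, with a median of 0 CPM in EGFP+ and 26.8 CPM in EGFP- cells, and by 0.35 in the second. Epha10 differed by -1.35 in the first series and by -1.17 in the second. Within the first series 2 of 10 receptors, Ephb1 and Epha10, were lower in EGFP+ cells by at least 1, against 20.7% of measured genes, and none was higher by that much, against 6.63%. In the part of that series where both classes occur, titles M20 to M48, the 5 EGFP+ and 21 EGFP- cells differed by 0.46 for Epha10 and by -1.22 for Ephb1. There 1 of 10 was higher by at least 1, against 16.4% of measured genes, and 3 were lower, against 29.7%. In the second series, with 3 EGFP+ cells, 3 of 10 were higher, against 35% of measured genes, and 2 lower, against 23.3%.

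Saline EGFP+ cells had the lowest levels of the main A-class receptors. Epha7 averaged 1.96 ± 2.75 in 5 saline EGFP+ cells and 6.78 ± 3.39 in 27 saline EGFP- cells, a difference of -4.81, and 0.265% of measured genes had a difference as low. Epha4 averaged 1.82 ± 2.99 in saline EGFP+ and 5.33 ± 3.92 in saline EGFP- cells, a difference of -3.51. With Epha6 (-2.38), Ephb6 (-1.28) and Epha5 (-1.25), 5 of 10 receptors were lower by at least 1, against 39.3% of measured genes, and none was higher by that much, against 11.6%. Against the same 5 cells, KA EGFP+ cells differed by 6.39 for Epha7 and by 4.62 for Epha4, and 7 of 10 receptors were higher in KA by at least 1, against 61.5% of measured genes, and none was lower by that much, against 8.36%. Of these KA EGFP+ cells 24 belong to the first series, which holds no saline cell. Within the second series, with 3 KA EGFP+ cells, the differences were 5.87 for Epha7, 6.98 for Epha4, 1.06 for Epha10 and 0.98 for Epha5, against 2.76 for Epha10 and 2.98 for Epha5 over all titles. There 6 of 10 receptors were higher by at least 1, against 38.2% of measured genes, and none was lower by that much, against 25.3%. Both comparisons share the 5 saline EGFP+ cells, and in 4 of these microglia markers took 0.1% of the counts or more. The part of these markers in the low receptor levels was not tested.

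Mean levels of Epha4, and likewise of Epha5 and Ephb6, were lower in cells with more microglia marker counts in each of the 3 larger groups. Epha4 averaged 3.57 ± 3.82 in KA EGFP+ cells with at least 0.1% of such counts. It averaged 8.13 ± 1.57 in the other cells of that group (n = 10 and 17). The pair was 3.07 ± 4.74 and 5.82 ± 3.79 among KA EGFP- cells (n = 6 and 30) and 4.01 ± 3.78 and 6.39 ± 3.81 among saline EGFP- cells (n = 12 and 15). All 10 such KA EGFP+ cells belong to the first series, where the other 14 averaged 7.98 ± 1.68. All 6 such KA EGFP- cells belong to the second series, in which most genes were lower, and the other 9 there averaged 4.91 ± 4.67. Epha7 showed the same order in KA EGFP+ cells (7.36 and 8.93) and KA EGFP- cells (4.86 and 8.54, or 8.81 in the other cells of the second series) and the opposite order in saline EGFP- cells (7.31 and 6.34). Epha10 differed little by this split in KA EGFP+ cells (4.04 and 4.04) and saline EGFP- cells (1.45 and 1.58), and averaged 4.07 and 4.86 in KA EGFP- cells. Epha5 had 3.48 and 4.70 in KA EGFP+, 1.70 and 4.47 in KA EGFP- and 1.60 and 3.24 in saline EGFP- cells. Ephb6 had 1.75 and 3.02, 0 and 1.57, and 0.72 and 1.73 in the same order. Epha3, counted in few cells, also went this way in each group. Epha6, Ephb1, Ephb2 and Ephb3 did not keep 1 direction over the 3 groups. Whether RNA of microglia bears on the receptor levels was not tested.

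Between the first and second title series of KA EGFP- cells all 10 receptors were higher in the first, 7 of them by at least 1 on the log2 scale, as were 70.3% of measured genes, and none was lower by that much, against 1.95%. The median difference was 1.35 over all 10 receptors, 2.04 over the 7 that passed the filter and 1.64 over measured genes. Ephb1 averaged 3.94 ± 3.46 in the first and 1.31 ± 2.74 in the second series, and Epha10 5.60 ± 3.54 and 3.51 ± 4.02. The series also differed in genes per cell, as given above, and the part of that in the receptor levels was not tested.

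The number of receptors per cell followed the same lines. A KA EGFP+ cell held a median of 5 of the 10 receptors after thinning (1 to 9) and a KA EGFP- cell 4 (0 to 9), against 2 in a saline EGFP+ cell (1 to 4) and 3 in a saline EGFP- cell (0 to 7). Within KA EGFP- cells the median was 6 in the first and 3 in the second series, so the second series equalled saline EGFP- cells. Over the 95 cells the number of receptors had a Spearman correlation of 0.70 with the number of genes counted in the cell, the points sharing library depth and series. Among single receptors this correlation ran from 0.00 for Ephb3 and 0.11 for Epha4 to 0.43 for Ephb1 and 0.48 for Ephb2.

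Spearman correlations of CPM between members over 95 cells ran from -0.26 (Epha4 and Ephb3) to 0.33 (Ephb1 and Ephb2). Epha4 and Epha7 had a correlation of 0.22 and were together at 10 CPM or more in 20 of 27 KA EGFP+ and 21 of 36 KA EGFP- cells, where independent genes would give 18.7 and 19.8. Of the 14 cells with Ephb2 at 10 CPM or more, all had Epha7 and 13 had Epha10 at that level. Independence over the 95 cells of all groups pooled would give 11.8 and 6.78. Within groups, Ephb2 and Epha10 were together in 5 KA EGFP+ and 7 KA EGFP- cells, where independence would give 3.15 and 4.89. Ephb2 and Epha7 were together in 5 and 8, where it would give 4.44 and 6.89. Both Ephb2 and Epha10 correlated with the number of genes counted per cell (Spearman 0.48 and 0.33). The measured genes most like a receptor over the 95 cells were Fbxw7 (0.54) for Epha4, Neu1 (0.47) and Odf2 (0.47) for Epha7, Snhg11 (0.55) and Acsl6 (0.53) for Epha10, Lpcat4 (0.48) for Epha5 and Ddx42 (0.52) for Epha6. These are descriptions over cells that share libraries, depth, title series, treatment and EGFP class.

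Among the 8 ephrins, the ligands, 4 passed the filter. Efna5, a high-affinity ligand of EphA receptors, averaged 2.80 ± 3.21 in KA EGFP- cells and 0.09 ± 0.46 in saline EGFP- cells on the log2 scale, a difference of 2.71. Among KA EGFP- cells it was counted nearly always in the first series: in 17 of 21 cells there (median 53.1 CPM, highest 258.9 CPM) and in 1 of 15 in the second, at 0.28 CPM, against 1 of 27 saline EGFP- cells. KA EGFP+ cells held it in 13 of 24 cells of the first series and in 2 of 3 of the second, at up to 5.34 CPM. Efna3 averaged 2.76 in KA and 1.35 in saline EGFP- cells, and its sign turned within the second series (0.70 and 1.35). The B-class ligands Efnb2 (0.79 in KA and 2.23 in saline EGFP- cells) and Efnb3 (1.63 and 2.90) were lower by at least 1 over all titles. Within the second series, at 0.93 and 0.95 in KA, both were again lower by that much. Efna5 passed the filter through KA cells: it had a count in 15 of 27 KA EGFP+ and 18 of 36 KA EGFP- cells. Efnb2 had a count in 9 of 27 saline EGFP- and 3 of 5 saline EGFP+ cells, against 4 of 27 KA EGFP+ and 8 of 36 KA EGFP- cells. Counts over the 4 ephrins that passed the filter carry this limit. Of these 4, 2 were higher and 2 lower by at least 1 over all titles, and of all 8 ephrins 3 were higher and 3 lower. The shares of measured genes were 29.8% and 9.71%. In the second series none of the 4 was higher and 2 were lower, against 9.52% and 33.4% of measured genes. Of all 8 ephrins none was higher there and 3 were lower. Of 4 further Eph receptors, Epha1 alone passed the filter, at 1.499 in KA and 0.65 in saline EGFP- cells.

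Of 46 signalling partners of Eph receptors, 38 passed the filter. Between KA and saline EGFP- cells 21 were higher and 17 lower, 5 and 4 of them by at least 1, against 29.8% and 9.71% of measured genes. The 3 highest differences belonged to Pak3, a kinase driven by Rac and Cdc42, with 7.44 in KA and 4.52 in saline EGFP- cells, Ngef, the exchange factor ephexin that binds EphA4, with 5.59 and 3.19, and Ptpro, a phosphatase of Eph receptors, with 5.06 and 3.03. The 3 lowest belonged to the exchange factor Itsn1 (3.00 and 4.83), the actin regulator Wasl (3.43 and 4.82) and the scaffold Sdcbp (7.36 and 8.72), which binds ephrin-B tails. Within the second series 2 of the 38 were higher and 19 lower by at least 1, against 9.52% and 33.4% of measured genes. In EGFP+ against EGFP- KA cells 4 of the 38 were higher and 1 lower by at least 1, against 17.1% and 4.13% of measured genes. The largest differences were higher for Sipa1l1 (5.53 and 4.18), Nck2 (3.26 and 1.93) and Nck1 (2.23 and 1.07). Lower was Rhoa (2.98 and 4.53), the GTPase that drives growth cone collapse. Each of these differences was below the SD over cells. Within the first title series none of the 38 was higher in EGFP+ cells by at least 1 and 9 were lower, against 6.63% and 20.7% of measured genes.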

How the data were processed

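The authors drew cytosol through a patch pipette and made Nextera XT libraries, per the labels' protocols; the submitters' processing notes name Trimmomatic, STAR, featureCounts, kallisto and the build GRCm38. The deposited values used are raw counts per gene. The authors' deposited normalized values, a signal equal to the counts times 1 factor per cell, served as an alternative. Versions, strand handling and the treatment of reads that match several genes are not given in the sources used here, so antisense reads cannot be told apart: exons of Epha10, Epha6 and Ephb1 overlap an antisense gene by 79, 107 and 152 bases. No molecular identifiers were used, and intervals cover counting error only.

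Counts of the 95 kept cells were scaled to CPM over genes, without 92 spike-in rows (6 counts in all). Treatment and EGFP class follow the labels, whose quality entries disagree with the table for some cells. The study states 57 passing saline EGFP- cells, of which 27 are used here and the rest not analysed here. Means of log2(CPM + 1), with a pseudocount of 1, were compared in Python 3.11.15 with pandas 2.3.3; trimmed-mean factors came from edgeR 4.0.16. A difference of at least 1 was counted, with no test. Thinning drew 1000000 counts per cell. Exon lengths came from GENCODE. The code was tested on simulated data. Members, gene lists and comparisons were chosen with earlier results of these data known. Named partners are the 3 highest and 3 lowest differences; genes like a receptor are those with the highest Spearman correlation, for receptors counted in most cells.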

Additional observations from a re-analysis of the deposited data

Results flagged for a closer look

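In the 5 saline EGFP+ cells, 3 receptors had 1 cell far from the other 4, all of which were at 0: Epha3 at 1.36, Epha6 at 1.67 and Ephb3 at 2.05 on the log2(CPM + 1) scale. Epha3 and Ephb3 stood out in the same cell, which had 1.56 and 3.13 CPM. For normally distributed values chance flags about 1 group in 20 by this rule. A group with 4 cells at 0 and 1 cell above 0 is always flagged, so that rate does not hold for these receptors. A count near the detection limit in a single cell is enough to meet the rule.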

How the results depend on the processing

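No paired analysis was possible because replicate numbers only order the cells of a group and name no mouse. Under other pseudocounts, scalings, filters, title series and sets of cells, 62 of 780 differences of single receptors took the opposite sign: 56 of the 375 whose difference was below 1 in size, and 6 of the 405 whose difference was at least 1. Restricting the title series gave 26 of the 62, out of only 80 differences run under such settings. Differences moved by more than 1 SD in 16 cases, 1 of them among the 62, all with pooled counts and for receptors at 0 in most cells of a group. Of the 6, Epha4 in EGFP+ minus EGFP- KA cells was -0.069 within the first title series. Of first minus second series, Epha4 was -0.51 and Epha7 -0.26 with pooled counts, and Epha7 was -0.38 without cells at 0.1% or more of microglia marker counts. Without those cells Epha5 in EGFP+ minus EGFP- saline cells was 0.78, from 1 EGFP+ cell. Leaving titles M267 to M272 out of the second series, an alternative chosen after seeing the data as were those without the other 2 KA blocks, gave -0.23 for Ephb2 in KA minus saline EGFP- cells.

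The median over the 10 receptors moved by less than 1 SD under every alternative run, but for KA minus saline EGFP- cells it was 0.68 over all titles, 0.08 within the second series and -0.26 there without titles M267 to M272. It ran from -1.12 to -0.74 for EGFP+ minus EGFP- saline cells and from 2.50 to 2.62 for KA minus saline EGFP+ cells when each saline EGFP+ cell was left out in turn.

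The share of genes past a difference of 1 in either direction depended more on the settings. It was 39.5% for KA minus saline EGFP- cells, 21.2% for EGFP+ minus EGFP- KA cells, 50.9% for EGFP+ minus EGFP- saline cells, 69.8% for KA minus saline EGFP+ cells and 72.2% for first minus second series. With no filter on low values it was 21.1%, 10.9%, 29.4%, 39.9% and 38.9% in the same order, and with a pseudocount of 10 it was 14.98%, 3.78%, 26.6%, 43.0% and 37.4%. For EGFP+ minus EGFP- KA cells it was 35.3% with the authors' normalized signal, 39.6% with a pseudocount of 0.1, 58.3% in the second title series and 46.2% in titles M20 to M48. For first minus second series it was 47.3% with pooled counts. Raising the pseudocount lowers the differences of genes with low levels by construction. The cause of the other moves was not tested. Thinning lowered the number of cells with a count from 83 to 82 for Epha7 and from 72 to 68 for Epha4. For Epha5 the number fell from 64 to 57 and for Epha6 from 51 to 45. Whether greater depth would count these receptors in more cells was not tested. Counts of 0 in 5 cells leave a wide interval for Ephb1 and Ephb6 in saline EGFP+ cells.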
